A study of Arabidopsis thaliana with 15 samples.

Results

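The jasmonate synthesis genes that act after lipoxygenase were followed in leaf 6 of *Arabidopsis* plants. The 10 genes, chosen by pathway step, were *AOS* (AT5G42650), *AOC1* (AT3G25760), *AOC2* (AT3G25770), *AOC3* (AT3G25780), *AOC4* (AT1G13280), *OPR3* (AT2G06050), *OPCL1* (AT1G20510), *ACX1* (AT4G16760), *KAT2* (AT2G33150) and *JAR1* (AT2G46370). All 10 were found among the 32833 genes of the expression table. The table holds 15 RNA-seq libraries in 5 groups of 3, all from Col-0 (WT) plants 22 to 24 days old. In the GSH group, leaf 1 had received 100 mM reduced glutathione, a tripeptide, and leaf 6 was taken 1 h later. The Glu group received 100 mM glutamate on leaf 1 in the same way. In the wounding group, leaf 6 was taken 1 h after wounding of leaf 1. The mock group, the control for GSH and Glu, had no small molecule, and the wounding mock group, the control for wounding, was taken before wounding. In the study's gene expression assays, solutions went onto the cut edge of a leaf 1 that had been cut some hours earlier, and no group is labelled as having received the solution without a small molecule. Every library came from a leaf that was not itself treated. The labels do not say whether a library was 1 plant or a pool. The p-values set group differences against the spread between libraries, and the spread between single plants is not known.

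Jasmonates are lipid-derived hormones that plants make within minutes to hours of wounding or insect attack. In the plastid, 13-lipoxygenases oxidize linolenic acid, allene oxide synthase (AOS) turns the hydroperoxide into an unstable epoxide, and allene oxide cyclase (AOC) closes the ring to give OPDA. In the peroxisome, OPR3 reduces OPDA, OPCL1 attaches coenzyme A, and rounds of beta-oxidation by acyl-CoA oxidase (ACX1), a multifunctional protein and a thiolase (KAT2) shorten the chain to jasmonic acid (JA). In the cytosol, JAR1 joins JA to isoleucine, which gives JA-Ile, the form that the receptor recognizes. Many genes of this pathway are themselves induced by jasmonate.

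The deposited values are FPKM (fragments per kilobase of transcript scaled to the mapped fragments), so levels of different genes can be set side by side, but the number of fragments behind a value is unknown. The sum over all genes ran from 548167 to 580837 FPKM across libraries. Between 21090 and 21750 genes were above 0 in 14 libraries, and 18664 in wounding mock replicate 1. The leaf marker *RBCS1A* (Rubisco small subunit) had group means of 9526 to 11560 FPKM, the root hair marker *EXPA7* was listed at 0 in every library, and of the 5 root and seed markers only *PYK10* was above 1 FPKM, with group means of 31.3 to 52.0 FPKM. Of the 4 leaf markers, *CAB1* and *RCA* fell after wounding, by 0.53 (adjusted p = 0.037 from limma) and 0.46 (adjusted p = 0.024) on the log2 scale. Over all genes, 10.9% passed as lower after wounding (1831 genes, and 1277 with median ratio scaling of the libraries). After GSH or Glu 0 of the 4 passed in limma, also at an unadjusted p under 0.05. In these bulk leaf samples, fewer cells of a type and less RNA per cell cannot be told apart.

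After GSH, 6 of the 10 genes rose: *AOS*, *AOC1*, *AOC2*, *AOC3*, *OPR3* and *OPCL1*. The other 4, *AOC4*, *ACX1*, *KAT2* and *JAR1*, did not pass the test. A gene passed at an adjusted p under 0.05 from limma, fitted on log2(FPKM + 1) over all genes with at least 1 FPKM in 3 of the compared libraries, and it is called a DEG where its absolute log2 fold change was also above 1. Adding 1 to FPKM makes the fold changes of weakly expressed genes smaller. Of the 16878 genes tested against mock, 4.05% passed as higher and 1.18% were DEGs with higher expression, and 4 of the 10 (*AOC1*, *AOC3*, *OPR3*, *OPCL1*) were such DEGs. *AOC3* was below 1 FPKM in every mock and wounding mock library, so it met the filter only through the treated libraries. It could be tested only because it was high there, also for Glu and wounding, so counting it adds no separate support. The median log2 fold change was 0.86 for the 10 genes and 0.04 for all genes tested. Among all passing genes, 683 of 779 were higher, and 568 of 736 with median ratio scaling of the libraries.

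After Glu, the same 6 genes passed as higher, and 3 of them (*AOC1*, *AOC3*, *OPR3*) were DEGs. Over all 16834 genes tested, 7.13% passed as higher and 1.15% were DEGs with higher expression. The median log2 fold change was 0.88 for the 10 genes and 0.00 for all genes tested. The GSH and Glu comparisons share the 3 mock libraries, so they are not independent of each other.

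After wounding, 9 of the 10 genes rose, all but *KAT2*, and all 9 were DEGs. Over all 16803 genes tested, 8.76% passed as higher and 5.28% were DEGs with higher expression. The median log2 fold change was 3.69 for the 10 genes and -0.07 for all genes tested. Among all passing genes, 1472 of 3303 were higher, and 1831 of 3108 with median ratio scaling. The numbers of passing genes among the 10 were 6, 6 and 9 under that scaling too, for GSH, Glu and wounding.

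**Figure D1:**
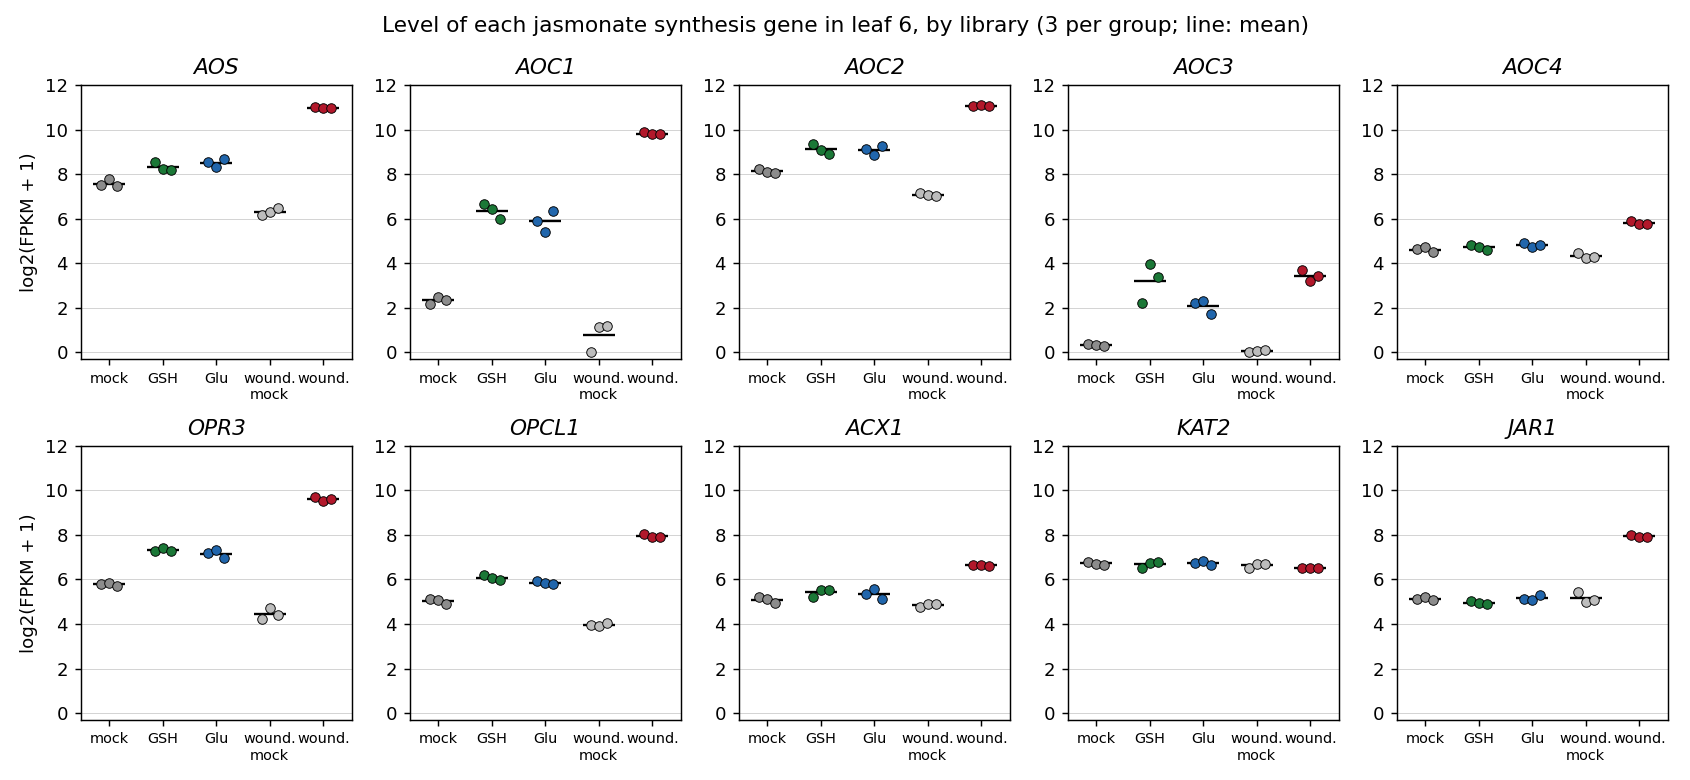
Level of each of the 10 genes in the 15 libraries, as log2(FPKM + 1), with 1 point per library and a line at the mean of each group of 3. The wounding libraries lie above all others for *AOS*, *AOC1*, *AOC2*, *AOC4*, *OPR3*, *OPCL1*, *ACX1* and *JAR1*, while *KAT2* overlaps between all neighbouring groups.

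**Figure D2:**
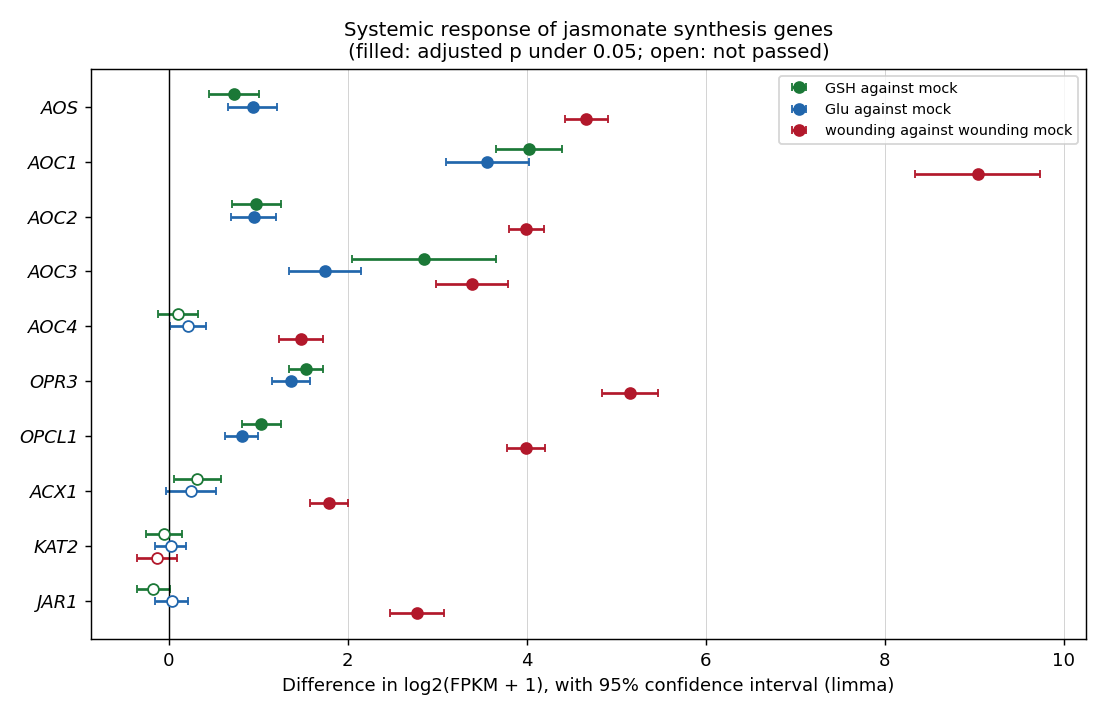
Differences in log2(FPKM + 1) of GSH and Glu against mock and of wounding against wounding mock for the 10 genes, with 95% confidence intervals from limma and filled points for an adjusted p under 0.05. *AOC1* has the largest difference of the 10 in each comparison (4.02, 3.56 and 9.04) on this scale, though with 0.1 added in place of 1 *AOC3* (4.49) is above *AOC1* (4.29) for GSH, and *KAT2* is open in each.

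*AOS* encodes the cytochrome P450 enzyme that commits hydroperoxides to the jasmonate branch. The gene lies at chr5:17097564-17099595 on the minus strand of TAIR10.1 and has a single exon. Its FPKM values were 179.7, 216 and 174.5 in the mock libraries, 371, 295 and 285 after GSH, and 371, 313.5 and 412 after Glu. All GSH and Glu libraries lay above all mock libraries, and the GSH and Glu ranges overlapped each other. The log2 fold change was 0.73 (SE 0.12, adjusted p = 0.015 from limma) for GSH and 0.94 (SE 0.12, adjusted p = 0.0021) for Glu, both below the DEG threshold. The GSH call was lost without GSH replicate 2 (adjusted p = 0.053), without mock replicate 1 (0.066) and with no filter on low values (0.093). Before wounding, *AOS* stood at 71.6, 76.8 and 87.0 FPKM, and after wounding at 2072, 1995 and 1977 FPKM. The wounding libraries were far above every other library, with a ratio of mean FPKM of 25.7 to wounding mock and a log2 fold change of 4.67 (SE 0.10, adjusted p = 2.5e-07).

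The 4 *AOC* genes encode isoforms of the cyclase. *AOC1* (chr3:9403779-9405338), *AOC2* (chr3:9406669-9408071) and *AOC3* (chr3:9409160-9411090) stand in a row on the plus strand of chromosome 3 in TAIR10.1, 1330 and 1088 bases apart with 0 annotated genes between them, and *AOC4* lies at chr1:4547388-4548894. None of the 10 genes overlaps another annotated gene. The coding sequences of *AOC1* and *AOC2* were identical at 89.9% of aligned positions, those of *AOC1* and *AOC3* at 81.2%, and those of *AOC1* and *AOC4* at 70.3%. Because such copies can share reads, the first 60 bases of the second coding exon of each gene are shown here from the RefSeq TAIR10.1 genome, 5′ to 3′, with capitals at the 26 positions where the 4 genes are not all alike. They come from chr3:9404579-9404638, chr3:9407313-9407372, chr3:9409880-9409939 and chr1:4548023-4548082, in that order and all on the plus strand.
AOC1: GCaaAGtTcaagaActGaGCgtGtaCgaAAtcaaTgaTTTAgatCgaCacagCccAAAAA
AOC2: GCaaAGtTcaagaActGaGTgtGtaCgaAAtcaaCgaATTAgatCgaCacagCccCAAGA
AOC3: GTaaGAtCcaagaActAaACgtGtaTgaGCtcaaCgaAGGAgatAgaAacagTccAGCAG
AOC4: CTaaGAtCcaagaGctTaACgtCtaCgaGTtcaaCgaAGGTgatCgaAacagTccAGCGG

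The longest run of bases shared by the transcripts of any pair of *AOC* genes was 73 bases, between *AOC1* and *AOC3*, and 47 bases between *AOC1* and *AOC2*. The reads were 150 bases long, and 0 windows of that length were shared by any pair. How reads that matched more than 1 copy were divided is not given in the sources used here, so the sum of the 4 genes was tested as well.

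*AOC2* was the most abundant of the 4 genes in every library. It stood at 299, 274 and 263 FPKM in the mock libraries, 644, 547 and 472 after GSH, and 554, 464 and 607.5 after Glu. Both treated groups were above mock without overlap and overlapped each other. The log2 fold change was 0.98 (SE 0.12, adjusted p = 0.0032) for GSH and 0.95 (SE 0.11, adjusted p = 0.0013) for Glu. From 138.9, 132 and 130.2 FPKM in wounding mock, *AOC2* rose to 2154, 2174 and 2111 FPKM after wounding, a log2 fold change of 3.99 (SE 0.08, adjusted p = 2.5e-07).

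*AOC1* changed from a low level to one of the higher levels among the 10 genes. The mock libraries held 3.54, 4.56 and 4.03 FPKM, the GSH libraries 99.4, 85.3 and 62.0, and the Glu libraries 58.9, 41.4 and 81.3. The lowest treated library was thus above the highest mock library by a wide margin, while GSH and Glu overlapped. The log2 fold change was 4.02 (SE 0.16, adjusted p = 2e-05) for GSH and 3.56 (SE 0.20, adjusted p = 3e-05) for Glu. In wounding mock, *AOC1* was listed at 0 in replicate 1, the library with fewer genes above 0, and at 1.21 and 1.29 FPKM in the others. After wounding it stood at 947, 882 and 879 FPKM. The log2 fold change of 9.04 (SE 0.30, adjusted p = 1.4e-06) depends on the constant added to such low values and was 10.64 with 0.1 in place of 1.

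*AOC3* was close to 0 in both control groups. Its values were 0.295, 0.256 and 0.233 FPKM in mock, 3.66, 14.5 and 9.49 after GSH, and 3.69, 3.98 and 2.28 after Glu. The GSH libraries differed among themselves by a large factor, with replicate 1 at the level of the Glu libraries. Both groups were above mock, by 2.85 (SE 0.36, adjusted p = 0.0036) for GSH and 1.75 (SE 0.18, adjusted p = 0.00066) for Glu on the log2 scale. Wounding mock held 0, 0.0392 and 0.0767 FPKM and wounding 12.1, 8.31 and 9.60 FPKM (log2 fold change 3.39, SE 0.17, adjusted p = 1.2e-05). With 0.1 added in place of 1, these differences were 4.49 for GSH, 3.21 for Glu and 6.21 for wounding, all still passing. *AOC3* was the one gene of the 10 whose wounding and GSH ranges overlapped while both were above their controls. With no filter on low values, the GSH call was lost (adjusted p = 0.064), and *AOC3* could not be tested when a library of the treated group was left out, since it then no longer met the filter.

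*AOC4* stood at 23.7, 25.5 and 21.3 FPKM in mock, 27.5, 25.4 and 23.1 after GSH, and 29.1, 25.9 and 27.3 after Glu. The Glu libraries lay just above the mock libraries, and the GSH libraries overlapped them. Neither difference passed, at 0.10 (adjusted p = 0.61) for GSH and 0.21 (adjusted p = 0.15) for Glu. After wounding, *AOC4* rose from 21.1, 17.9 and 18.6 FPKM to 58.7, 52.8 and 53.7 FPKM, a log2 fold change of 1.48 (SE 0.11, adjusted p = 7.7e-05). This was the smallest of the 9 increases after wounding.

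The summed FPKM of the 4 *AOC* genes was 306.6 ± 18.9 in mock, 671 ± 104 after GSH, 633 ± 92.4 after Glu, 153.8 ± 5.41 in wounding mock and 3114 ± 59.0 after wounding (mean ± SD, n = 3). The sum rose in all 3 treatments, with log2 fold changes of 1.12 for GSH (adjusted p = 0.0016), 1.03 for Glu (adjusted p = 0.001) and 4.33 for wounding (adjusted p = 2.1e-07).

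The make-up of the sum also differed between groups. *AOC1* made up 1.33 ± 0.22% of it in mock, 12.2 ± 1.05% after GSH, 9.39 ± 1.80% after Glu and 29.0 ± 0.80% after wounding (mean ± SD, n = 3). In wounding mock its share was 0, 0.796 and 0.859%. The *AOC4* share went the other way, from 7.67 ± 0.61% in mock to 3.80 ± 0.26% after GSH and 4.38 ± 0.53% after Glu, and from 12.5 ± 0.69% in wounding mock to 1.77 ± 0.08% after wounding. *AOC2* made up 90.9 ± 0.79% in mock, 82.6 ± 1.07% after GSH, 85.7 ± 1.06% after Glu, 87.0 ± 0.34% in wounding mock and 68.9 ± 0.94% after wounding. *AOC3* stayed below 2.16% in every library. These shares were not tested.

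**Figure D3:**
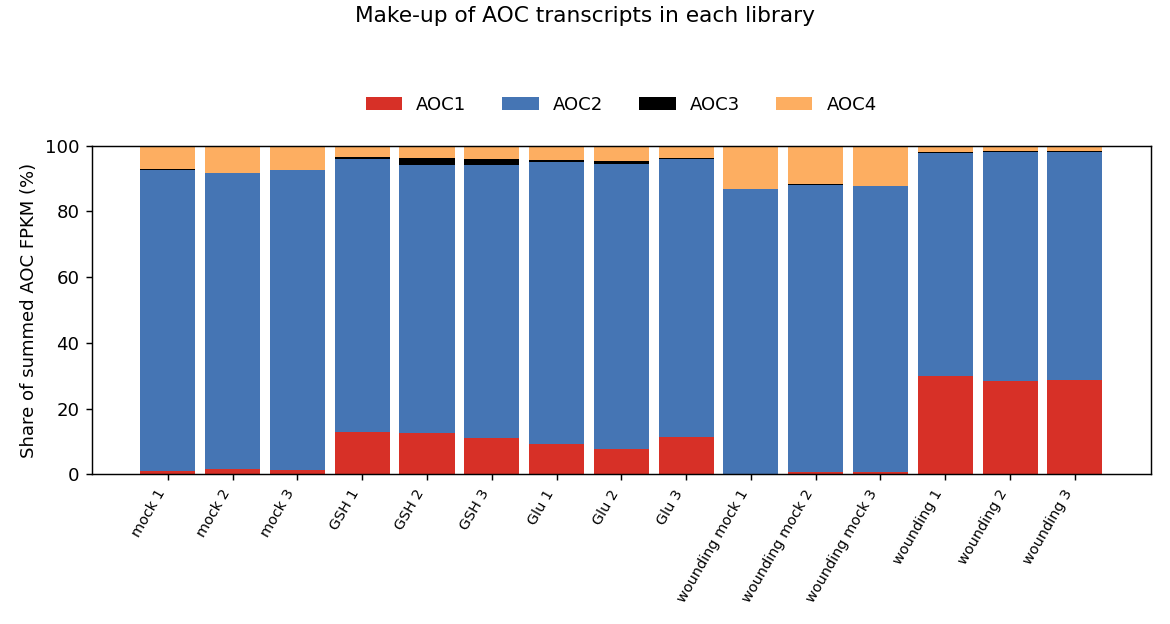
Share of each *AOC* gene in the summed FPKM of the 4 genes, in percent, with 1 stacked bar per library. *AOC1* grows from at most 1.496% in the mock libraries to between 28.3 and 29.9% in the wounding libraries, and *AOC2* is the largest segment in every bar.

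*OPR3* encodes the peroxisomal reductase that takes OPDA into beta-oxidation, and lies at chr2:2359114-2362375 on the minus strand. Mock libraries held 54.5, 57.0 and 51.3 FPKM, GSH libraries 151.8, 170.9 and 154.7, and Glu libraries 144.2, 157.1 and 125.2. Every treated library was more than 100 FPKM and every mock library less than 60 FPKM. *OPR3* was a DEG after both, with a log2 fold change of 1.53 (SE 0.09, adjusted p = 6.1e-05) for GSH and 1.37 (SE 0.09, adjusted p = 7.5e-05) for Glu. From 17.8, 25.2 and 20.4 FPKM before wounding it rose to 836, 741 and 769 FPKM. The ratio of mean FPKM was 37.1 and the log2 fold change 5.16 (SE 0.13, adjusted p = 5e-07).

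*OPCL1* encodes a ligase that activates the OPR3 product with coenzyme A, and lies at chr1:7103362-7106121 on the minus strand. Its values were 33.7, 33.2 and 29.0 FPKM in mock, 72.4, 65.2 and 62.2 after GSH, and 59.1, 56.6 and 55.1 after Glu. The 3 groups did not overlap, with the GSH libraries highest. GSH gave a log2 fold change of 1.04 (SE 0.10, adjusted p = 0.00073) and Glu one of 0.82 (SE 0.08, adjusted p = 0.00058). Wounding mock held 14.5, 14.1 and 15.3 FPKM and wounding 261, 239 and 241 FPKM (log2 fold change 3.99, SE 0.09, adjusted p = 2.7e-07).

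*ACX1* encodes the acyl-CoA oxidase that opens beta-oxidation of the JA precursor, and lies at chr4:9424534-9428895 on the minus strand. It stood at 36.2, 33.7 and 30.0 FPKM in mock, 35.6, 44.4 and 45.7 after GSH, and 39.4, 46.9 and 33.5 after Glu. All 3 groups overlapped, and neither the GSH difference of 0.32 (adjusted p = 0.16) nor the Glu difference of 0.25 (adjusted p = 0.24) passed. GSH replicate 1 was the low one, and without it the GSH difference passed, at 0.43 (adjusted p = 0.031). After wounding *ACX1* rose from 26.3, 28.3 and 28.8 FPKM to 100.1, 99.1 and 96.6 FPKM (log2 fold change 1.79, SE 0.09, adjusted p = 1e-05).

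*KAT2* encodes a thiolase of general fatty acid beta-oxidation, and lies at chr2:14047478-14051400 on the minus strand. Its 15 values lay between 89.3 and 113.7 FPKM. Means were 104.8 ± 5.09 in mock, 101.3 ± 8.70 after GSH, 106.4 ± 7.21 after Glu, 98.9 ± 8.01 in wounding mock and 90.1 ± 1.16 after wounding (SD, n = 3). Every group overlapped its neighbours. The log2 fold change was -0.05 (95% confidence interval -0.25 to 0.15) for GSH, 0.02 (-0.15 to 0.20) for Glu and -0.13 (-0.35 to 0.09) for wounding, with adjusted p values of 0.80, 0.89 and 0.41. The sign for GSH and Glu changed with the control group or with a library left out. Against the mock group in place of wounding mock, the wounding libraries were lower by a difference that passed (-0.22, adjusted p = 0.028).

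*JAR1* encodes the enzyme that conjugates JA to isoleucine, and lies at chr2:19033586-19036683 on the plus strand. Mock libraries held 33.8, 35.5 and 32.2 FPKM, GSH libraries 31.3, 29.6 and 28.8, and Glu libraries 33.8, 32.4 and 38.0. The GSH libraries lay just below all mock libraries, and the Glu libraries overlapped mock. The difference was -0.17 for GSH (95% confidence interval -0.36 to 0.01, adjusted p = 0.28) and 0.04 for Glu (-0.15 to 0.22, adjusted p = 0.82). Such a gap, in either direction, was found in 26.5% of genes tested for GSH. After wounding *JAR1* rose from 42.0, 30.6 and 32.6 FPKM to 254, 240.1 and 237 FPKM, a ratio of means of 6.95 and a log2 fold change of 2.77 (SE 0.13, adjusted p = 7.5e-06).

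GSH, the tripeptide, and Glu, the amino acid that is 1 of its residues, were given at the same dose and time, so their libraries were compared directly for each of the 10 genes. None of the 10 passed, with p-values adjusted over all 16953 genes tested, of which 0.0826% passed in either direction. At an unadjusted p under 0.05 there were 3 of the 10, *AOC3*, *OPCL1* and *JAR1*, beside 8.77% of all genes. *AOC3* was higher after GSH by 1.10 (95% confidence interval 0.23 to 1.98, adjusted p = 0.48). *OPCL1* was higher by 0.22 (0.04 to 0.41, adjusted p = 0.50), and *JAR1* lower by a difference of -0.21 (-0.40 to -0.01, adjusted p = 0.55). Only these last 2 had groups that did not overlap, against 14.6% of all genes.

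For the other 7 genes the interval of the GSH minus Glu difference included 0. It ran from -0.50 to 0.09 for *AOS*, from -0.09 to 1.01 for *AOC1*, from -0.28 to 0.34 for *AOC2* and from -0.06 to 0.39 for *OPR3*. Each interval gives the differences that are compatible with these 3 libraries a group, so equal levels were not shown. The call for *AOC3* depended on GSH replicate 1: without it the difference was 1.59 (adjusted p = 0.028), 99 genes in all passed, and 1 of the 10 was a DEG. Among all passing genes, 7 of 14 were higher after GSH, and 6 of 16 with median ratio scaling.

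The control groups were also compared with each other, since wounding is read against a different control from GSH and Glu. In mock, 4 of the 9 genes that could be tested were higher than in wounding mock, beside 0.227% of the 16739 genes tested. They were *AOS* (log2 difference 1.26, SE 0.13, adjusted p = 0.0095), *AOC2* (1.05, SE 0.10, adjusted p = 0.0088), *OPR3* (1.33, SE 0.14, adjusted p = 0.012) and *OPCL1* (1.08, SE 0.11, adjusted p = 0.0095). *AOC1* differed by 1.55 (adjusted p = 0.21, and by 2.86 with 0.1 added, adjusted p = 0.76), *AOC4* by 0.28 (0.83), *ACX1* by 0.25 (0.83), *KAT2* by 0.08 (0.84) and *JAR1* by -0.04 (0.94). The groups did not overlap for 7 of the 9 genes tested: *AOS*, *AOC1*, *AOC2*, *AOC4*, *OPR3*, *OPCL1* and *ACX1*, beside 7.49% of all genes with mock higher. The median was 1.05 over the 9 genes and 0.03 over all genes tested.

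These calls rested on few libraries. Leaving out any 1 of the mock libraries left 0 of the 10 genes passing, with adjusted p of 0.058 to 0.16 for the 4 and with 0, 0 and 13 genes passing over the whole table, while the differences themselves stayed between 1.00 and 1.37 for the 4 genes. Without wounding mock replicate 1, 5 passed, *AOC1* among them (1.16, adjusted p = 0.016), without replicate 2 there were 2, and without replicate 3 there were 3. Over the whole table, 96 of 16612, 35 of 16578 and 37 of 16576 genes passed in these, in that order. With the replicate number as a block, 2 of the 10 passed, beside 36 of 16739 genes. What else differed between the control groups is not given by the labels and cannot be told apart from the group.

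The size of the effects on *AOS*, *AOC1*, *AOC2*, *OPR3* and *OPCL1* differed with the control group that was used. *AOC1*, which did not pass between the control groups, was higher than wounding mock by 5.57 after GSH and 5.11 after Glu. Against wounding mock, *AOS* was higher by 2.00 after GSH and 2.20 after Glu, *AOC2* by 2.03 and 2.00, *OPR3* by 2.87 and 2.70, and *OPCL1* by 2.11 and 1.89. All of these are larger than the differences from mock. Wounding compared with mock gave 3.41 for *AOS*, 2.94 for *AOC2*, 3.82 for *OPR3*, 2.92 for *OPCL1* and 7.49 for *AOC1*, which are smaller than those from wounding mock. *JAR1* was little affected by the choice, at 2.81 after wounding against mock and 2.77 against wounding mock.

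**Figure D4:**
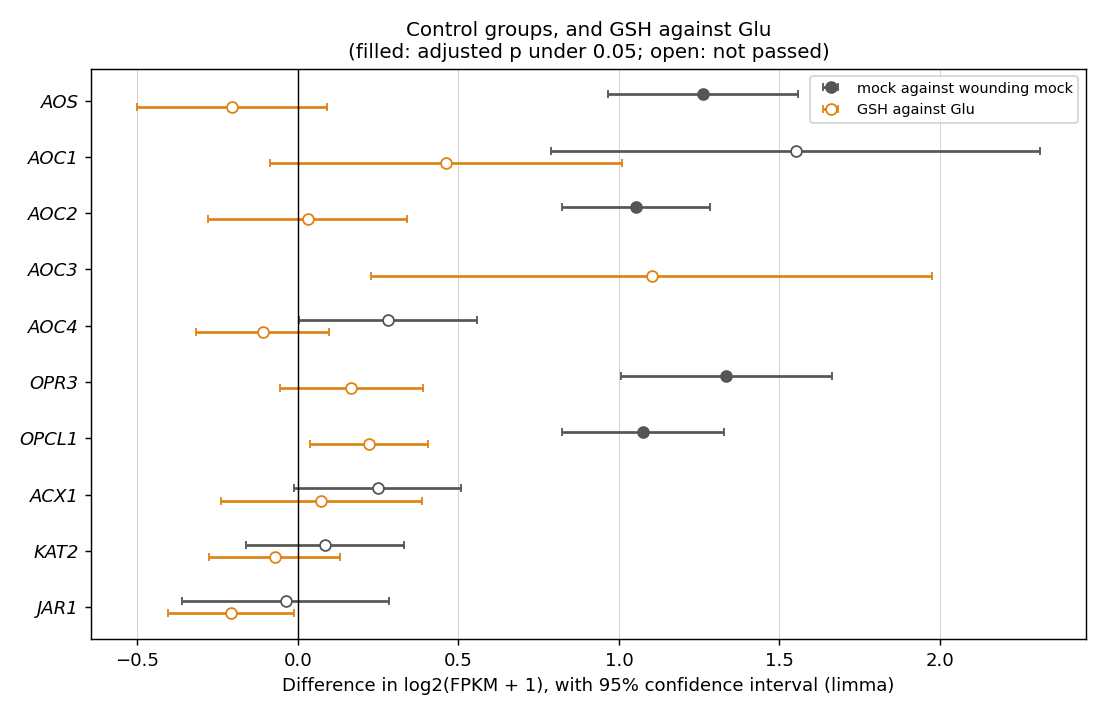
Differences in log2(FPKM + 1) of mock against wounding mock (grey) and of GSH against Glu (orange) for the genes tested, with 95% confidence intervals from limma and filled points for an adjusted p under 0.05. *AOS*, *AOC2*, *OPR3* and *OPCL1* are filled and higher in mock by 1.05 to 1.33, and every orange point is open.

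The effects of GSH and Glu were then set against the effect of wounding in 1 fit with an interaction contrast. For 8 of the 10 genes the GSH effect was smaller than the wounding effect, beside 5.24% of the 17415 genes tested with a negative difference that passed. The largest difference was that of *AOC1* (-5.02, SE 0.38, adjusted p = 2.1e-06), followed by *AOS* (-3.94, SE 0.17, adjusted p = 2.6e-08), *OPR3* (-3.62, SE 0.16, adjusted p = 3.1e-08), *AOC2* (-3.01), *OPCL1* (-2.95), *JAR1* (-2.95), *ACX1* (-1.47) and *AOC4* (-1.37). The others were *AOC3* (-0.54, 95% confidence interval -1.53 to 0.45, adjusted p = 0.52) and *KAT2* (0.08, -0.20 to 0.36, adjusted p = 0.76). With 0.1 added in place of 1, the *AOC3* difference was -1.72 (adjusted p = 0.087). For Glu, 9 genes had a smaller effect than after wounding, beside 6.22% of 17403 genes. *AOC3* was among them (-1.64, SE 0.25, adjusted p = 0.00063, and -3.004 with 0.1 added), and *KAT2* was not (0.15, adjusted p = 0.47). The medians of the 10 genes were -2.95 for GSH and -2.89 for Glu, where all genes had 0.13 and 0.08. Under median ratio scaling the median of all genes for GSH moved from 0.13 to -0.01. The share of higher among all passing genes moved from 1425 of 2338 to 807 of 1979 for GSH and from 1569 of 2651 to 1085 of 2449 for Glu.

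Part of these differences lay between the controls. In a direct contrast of treated libraries, added after the data were seen, the GSH libraries were lower than the wounding libraries by -2.67 for *AOS*, -3.47 for *AOC1*, -2.29 for *OPR3* and -2.98 for *JAR1*. For GSH, 8 of the 10 genes passed as lower, beside 9.61% of all genes tested. For Glu, 9 passed as lower, beside 15.3% of all genes, and 1, *KAT2*, as higher (0.24, adjusted p = 0.014), beside 28.6% of all genes. The DEGs numbered 8 for GSH and 8 for Glu, beside 1069 of 16914 and 1173 of 16868 genes in either direction. *JAR1* had nearly the same value in both forms of the contrast. The differences of *AOS*, *AOC1*, *AOC2* (-1.96 for GSH in the direct form), *OPR3* and *OPCL1* (-1.88) were smaller by more than 1 in the direct form.

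A list of 12 genes held those upstream of AOS (lipid release, desaturation and 13-lipoxygenases) and a gene for OPDA export, a step that follows AOC. Of these 12, 8 could be tested, the OPDA export gene among them. After GSH, 2 rose and 1 fell, beside 4.05% of all genes that passed as higher and 0.569% as lower, and the list median was 0.27 beside 0.04 for all genes. *LOX3* and *LOX4*, which encode 13-lipoxygenases, had log2 fold changes of 1.70 (adjusted p = 0.0019) and 1.75 (adjusted p = 0.00065), and *FAD8*, a plastid desaturase gene, fell by 0.42 (adjusted p = 0.029). After Glu, 3 rose and 1 fell, beside 7.13% and 3.04% of all genes, and the median was 0.36 beside 0.00. The log2 fold change of *LOX3* was 1.63 (adjusted p = 7.9e-05), that of *LOX4* 1.39 (adjusted p = 0.00048) and that of *FAD8* -0.57 (adjusted p = 0.024). After wounding, 6 rose, the OPDA export gene among them, and 0 fell, beside 8.76% and 10.9% of all genes. The median was 0.92 beside -0.07. The increases were led by *LOX4* (5.37, adjusted p = 6.9e-06), *LOX3* (4.93, adjusted p = 2.5e-07) and *LOX2* (3.18, adjusted p = 2.3e-06).

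*LOX2*, the most abundant of the lipoxygenase genes, stood at 1665, 1989 and 1293 FPKM in mock and 2549, 1772 and 1794 after GSH, and these groups overlapped. In wounding mock it stood at 394.5, 503 and 449.7 FPKM, and it was the one upstream gene that passed between the control groups (1.86, adjusted p = 0.0089). *DAD1*, which encodes a lipase that releases linolenic acid, was listed at 0 in all libraries of the mock, GSH and wounding mock groups. The wounding libraries held 1.21, 0.614 and 0.893 FPKM.

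Of 11 genes for peroxisomal import and beta-oxidation beyond the 10, all 11 were tested. After GSH 0 of them passed in limma in either direction, and 2 had an unadjusted p under 0.05, as 20.4% of all genes did. The list median was 0.07 beside 0.04 for all genes. After Glu, *LACS6*, which encodes a peroxisomal acyl-CoA synthetase (0.32, adjusted p = 0.02), and *ACX2*, an acyl-CoA oxidase gene (0.31, adjusted p = 0.045), rose, beside 7.13% of all genes. After wounding, 1 gene rose and 2 fell, shares near those of all genes, of which 8.76% passed as higher and 10.9% as lower. The one that rose was *KAT5*, a second thiolase gene, from 17.5, 25.0 and 30.8 FPKM to 188.7, 197.3 and 176.0 FPKM (2.92, adjusted p = 4.6e-05). *ACX4* fell by 0.54 (adjusted p = 0.022) and *AIM1*, which encodes a multifunctional protein, by 0.32 (adjusted p = 0.044). *KAT5* did not overlap between wounding and wounding mock, unlike *KAT2*.

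Of 9 paralogues of the 10 genes, 8 could be tested for GSH and Glu and 7 for wounding. *HPL1*, a gene of the hydroperoxide lyase type related to *AOS*, had log2 fold changes of 1.02 after GSH (adjusted p = 0.0011), 0.74 after Glu (adjusted p = 0.0037) and 3.97 after wounding (adjusted p = 2.3e-05). Like *AOS*, it was also higher in mock than in wounding mock, by 1.91 (adjusted p = 0.033). *GH3.10*, of the same enzyme family as JAR1, stood at 8.80, 9.20 and 7.87 FPKM in mock, 13.3, 12.8 and 12.2 after GSH and 11.96, 11.7 and 14.5 after Glu. It rose after GSH (0.52, adjusted p = 0.02), Glu (0.51, adjusted p = 0.018) and wounding (2.07, adjusted p = 3.4e-05). AT1G20490, a paralogue of *OPCL1*, rose after wounding (1.26, adjusted p = 0.015) and did not pass after GSH (-0.17, adjusted p = 0.50) or Glu (0.14, adjusted p = 0.54). The paralogues that rose were 2 after GSH, 2 after Glu and 3 after wounding, beside 4.05%, 7.13% and 8.76% of all genes, and 0 fell. The list medians were 0.18, 0.13 and 0.63, beside 0.04, 0.00 and -0.07.

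Among 16835 genes, the ones whose log2(FPKM + 1) over the 15 libraries was most like that of *AOC1* were *JAZ5* (Pearson r = 0.992), *NUDT8* (0.991) and *JAZ6* (0.988). *JAZ5* and *JAZ6* encode repressors of jasmonate signaling. For *OPR3* they were AT3G51450 (0.995), *JAZ6* (0.993) and *ILL6* (0.993), which encodes an amidohydrolase that cleaves JA-Ile. For *JAR1* they were *GTR1* (AT3G47960, 0.992), which encodes a transporter of glucosinolates, AT3G27415 (0.991) and AT3G27809 (0.990). *GTR1* had means of 42.9, 43.3, 46.6, 39.7 and 205 FPKM in mock, GSH, Glu, wounding mock and wounding. AT3G27415 and AT3G27809 had means of 7.76 and 8.72 FPKM after wounding and below 0.08 FPKM in each other group. These 2 met the minimum mean level for the ranking only through the wounding group. The genes most like *JAR1* were high in the wounding group and near their control level after GSH and Glu. Those most like *AOC1* and *OPR3* were higher than mock after both. All were picked for likeness over these same libraries, so a shared group pattern follows from the choice and is no separate result. These correlations describe 15 libraries from 5 groups, and the points share the differences between those groups.

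Within groups, deviations from the group mean were also compared between genes. Of 45 pairs of the 10 genes, r over the 15 libraries lay between -0.73 and 0.89, and those described here were chosen after their values were seen. *ACX1* and *KAT2* had the highest value (r = 0.89). Of the plastid genes, r was 0.76 for *AOS* and *AOC1*, 0.66 for *AOS* and *AOC2* and 0.44 for *AOC1* and *AOC2*. *AOC4* had r of 0.48 with *AOS*, -0.03 with *AOC1* and 0.61 with *AOC2*. *AOC3*, also a plastid gene, went the other way, at -0.58 with *AOS*, -0.28 with *AOC1* and -0.61 with *AOC2*. With *ACX1* and *KAT2*, *AOC3* had r of 0.71 and 0.66. Of the peroxisomal genes, *OPCL1* had r of 0.56 with *AOS*, 0.22 with *AOC1* and 0.50 with *AOC2*. For *OPR3* these were -0.165, 0.199 and -0.379. With *ACX1*, r was -0.72 for *AOC2*, -0.58 for *AOS* and -0.41 for *AOC1*. With *KAT2*, it was -0.67 for *AOC2*, -0.43 for *AOS* and -0.05 for *AOC1*.

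The groups were not alike in this. In the GSH group, *AOS*, *AOC1* and *AOC2* were highest in replicate 1 and lowest in replicate 3, and *ACX1* and *KAT2* were lowest in replicate 1 and highest in replicate 3. In the Glu group, *AOS*, *AOC1* and *AOC2* were highest in replicate 3 and lowest in replicate 2, and *ACX1* and *KAT2* the reverse. In the mock group, *AOC2*, *ACX1* and *KAT2* were all highest in replicate 1 and lowest in replicate 3, while *AOS* and *AOC1* were highest in replicate 2. In wounding mock, *AOS*, *AOC1*, *ACX1* and *KAT2* were all lowest in replicate 1, where *AOC2* was highest. In the wounding group none of the 5 genes deviated by more than 0.07.

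Other choices, both added after the data were seen, moved the values. Without wounding mock replicate 1, r was 0.83 for *AOC1* and *AOC2*, 0.96 for *ACX1* and *KAT2*, -0.85 for *AOC1* and *KAT2* and -0.71 for *AOC2* and *ACX1*. With median ratio scaling these were 0.21, 0.88, -0.50 and -0.61. The points of each pair share the libraries and their scaling, the deviations of 3 replicates sum to 0, and no test was made.

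**Figure D5:**
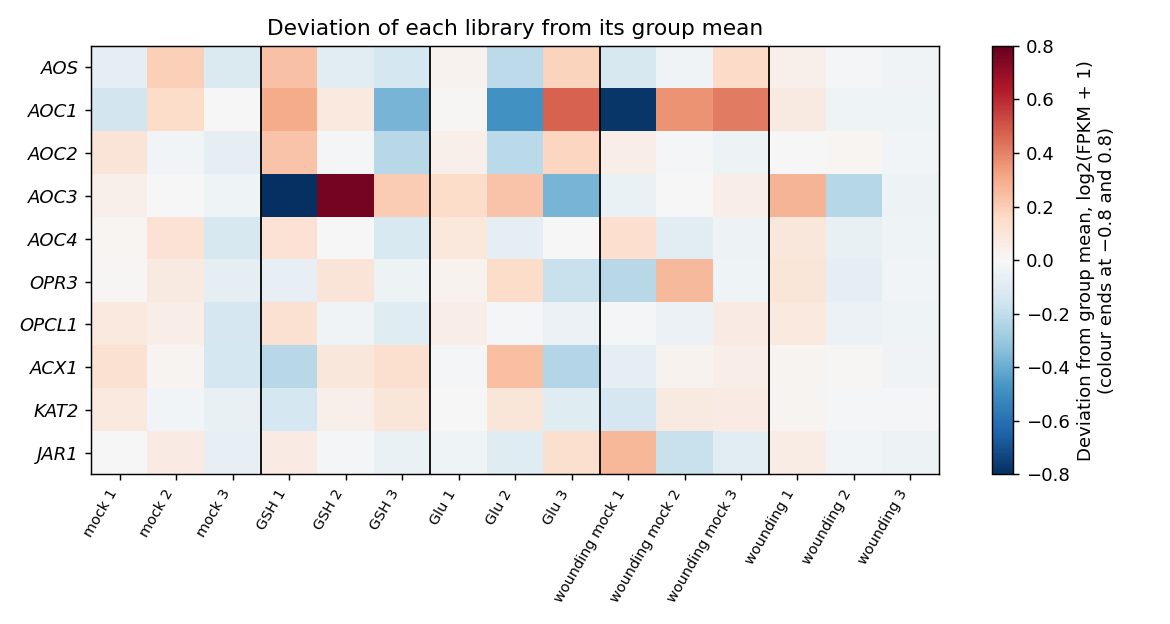
Deviation of each library from the mean of its group, in log2(FPKM + 1), for the 10 genes (rows) and 15 libraries (columns), red above and blue below the mean. In GSH replicate 1, *AOS*, *AOC1* and *AOC2* are above the mean by 0.23 to 0.30 and *ACX1* and *KAT2* below it (-0.22 and -0.14), and Glu replicate 2 has the opposite pattern.

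Promoter windows were read from TAIR10.1 as the 250 bases before the annotated start of each gene, since several of the 10 genes moved together. The G-box core CACGTG, the letters that MYC factors of jasmonate signaling bind, was found on either strand in 2 of the 10 windows, *AOS* and *ACX1*, and in 6.49% of the 27443 windows of all genes. It reads the same on both strands. CACATG or CATGTG, a variant of it and its reverse complement, was in 2 of the 10 (*AOC4* and *JAR1*) and in 11.1% of all windows, and none of the 10 windows held both motifs. The letters GCCGCC, searched on both strands, were in 0 of the 10 and in 1.87% of all, and CGCGTT or AACGCG in 0 of the 10 and in 2.59% of all. The windows with CACGTG are printed because they are the 2 of the 10 that hold it, from chr5:17099596-17099845 and chr4:9428896-9429145, both on the minus strand, 5′ to 3′ towards the gene, with CACGTG in capitals.
AOS: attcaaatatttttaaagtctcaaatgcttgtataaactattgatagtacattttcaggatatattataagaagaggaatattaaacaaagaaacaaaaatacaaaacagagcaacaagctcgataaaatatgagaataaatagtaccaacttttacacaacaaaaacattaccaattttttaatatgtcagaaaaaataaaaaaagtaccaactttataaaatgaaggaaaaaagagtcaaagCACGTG
ACX1: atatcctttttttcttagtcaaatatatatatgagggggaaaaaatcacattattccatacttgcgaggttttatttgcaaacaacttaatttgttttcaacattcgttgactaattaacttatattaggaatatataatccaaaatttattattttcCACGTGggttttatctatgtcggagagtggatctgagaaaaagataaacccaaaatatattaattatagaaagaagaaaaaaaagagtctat

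In *AOS* the match ended just before the annotated start, and in *ACX1* it began 92 bases before it. *AOS* rose in all 3 treatments and *ACX1* after wounding. *AOC1*, *AOC2*, *AOC3*, *OPR3* and *OPCL1*, which also rose in all 3, had no CACGTG in this window. No match says only that these letters were not in these 250 bases.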

How the data were processed

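RNA-seq libraries of leaf 6 were analysed. The authors trimmed 150 bp paired-end reads with Cutadapt and Trimmomatic, aligned them with HISAT2 and quantified genes with StringTie, and the submitters' notes name TAIR10 and DESeq2 1.16.1. The deposited table is headed as counts, but its values are FPKM from the authors' StringTie run, so no count test was used and depth is unknown. All 15 columns were mapped to libraries. Tests used limma 3.58.1 (R 4.3.3). FPKM values were increased by 1 and log2 transformed, and each fit had a prior variance that followed expression, only the compared groups, genes with at least 1 FPKM in 3 of the libraries, and Benjamini-Hochberg adjustment over all genes. The method was tested on simulated data. Thresholds followed the study: adjusted p under 0.05 and, for DEGs, absolute log2 fold change above 1.

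The 10 genes, the lists and the alternatives were chosen with earlier results of these data known. Named were the 10 genes, up to 3 passing genes per list and comparison with the largest change, and the 3 genes most correlated with *AOC1*, *OPR3* and *JAR1*; *DAD1* and single values of *LOX2* were added after their values were seen. Positions and sequences are from RefSeq TAIR10.1. Alternatives changed the filter, pseudocount, scaling, variance trend, control group, libraries or the use of replicate numbers. A protein comparison was planned, and coding sequences were compared in its place.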

Additional observations from a re-analysis of the deposited data

Results flagged for a closer look

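The effects of GSH and of wounding on the same genes differed by an interaction test in limma for 8 of the 10 jasmonate synthesis genes, and those of Glu and of wounding for 9 of the 10. In each of these the chemical treatment had the smaller effect. Over all genes tested, 5.24% passed in that direction for GSH and 6.22% for Glu. The 2 effects were measured against different controls, which differed by 1.05 to 1.33 in log2(FPKM + 1) for *AOS*, *AOC2*, *OPR3* and *OPCL1*. In the direct contrast of treated libraries, 8 genes passed as lower for GSH, beside 9.61% of all genes, and 9 for Glu, beside 15.3%. For each, 8 were DEGs, beside 1069 of 16914 genes for GSH and 1173 of 16868 for Glu in either direction. Groups of 3 libraries were too small to look for single outlying libraries.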

How the results depend on the processing

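Of the log2 differences of single genes under the alternatives, 1016 kept their direction and side of the threshold, 23 lost and 7 gained a call, and 12 changed sign. Those that changed sign were small. Against wounding mock, *KAT2* for GSH was 0.0341 and *JAR1* for Glu -0.0024. With median ratio scaling, *AOC2* for GSH against Glu was -0.0237 and *KAT2* for the GSH minus wounding effect -0.079. With 1 library left out, the difference ran from -0.0997 to 0.0201 for *KAT2* after GSH, -0.0271 to 0.0699 for *KAT2* after Glu, -0.0299 to 0.0822 for *JAR1* after Glu, -0.0825 to 0.1407 for *AOC2* and -0.0437 to 0.194 for *ACX1* in GSH against Glu, and -0.1259 to 0.0958 for *JAR1* in mock against wounding mock. The cause was not tested.

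With 1 library left out, the number of passing genes among the 10 ranged from 4 to 6 for GSH, 5 to 6 for Glu and 8 to 9 for wounding, and the DEGs from 2 to 5 for GSH (2 without GSH replicate 1) and 2 to 4 for Glu. Part of this came from *AOC3*, which was not tested when a treated library was left out. Against wounding mock, Glu had 6 DEGs. With no filter on low values, over more genes, 4 passed for GSH and 2 passed, both as DEGs, for mock against wounding mock. Between GSH and Glu, 0 to 1 passed and 0 to 1 were DEGs. The *AOC* sum differed by -0.0326 to 0.1993, below 0 without GSH replicate 1 (-0.0253) and without Glu replicate 2, against 0.08 in full. Between mock and wounding mock, 0 to 5 passed and 0 to 5 were DEGs. The *AOC* sum there was 0.94 to 1.03 with adjusted p of 0.052 to 0.16 without mock replicate 1, 2 or 3 or wounding mock replicate 2. The GSH minus wounding and Glu minus wounding counts were 8 and 9 in all of these.

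Replicate numbers gave no clear pairing of the libraries. Deviations of same-numbered libraries correlated between -0.164 and 0.212, with no comparison above 0.1 in every pair. Libraries that correlated best with their own number were 0, 0, 4, 2 and 1 of 6. These are for GSH, Glu, wounding, GSH against Glu and mock against wounding mock. For wounding against wounding mock the correlations were 0.184, 0.212 and -0.001, so pairing there was not settled. With a replicate block, calls over all genes moved from 779 to 374 for GSH, 1712 to 1247 for Glu and 3303 to 3011 for wounding. Among the 10 genes the block changed calls only between mock and wounding mock, where 2 passed, 2 were DEGs, and the *AOC* sum (0.99) had an adjusted p of 0.07. Over all genes, 36 of 16739 passed there with the block.

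The unknown depth limits low values, above all those of *AOC1* and *AOC3* in the control groups, and 3 libraries a group limit every comparison.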

Other observations

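FPKM values are per length, so levels of successive steps can be set side by side. *OPR3* stood at 0.265 to 0.303 of the *AOS* level in the mock libraries, 0.410 to 0.579 after GSH, 0.304 to 0.501 after Glu, 0.234 to 0.328 in wounding mock and 0.372 to 0.403 after wounding. The GSH and wounding ranges lay above those of their controls, and the Glu range began just above the highest mock library. *AOS* stood at 0.550 to 0.708 of the *AOC* sum in mock, 0.439 to 0.503 after GSH, 0.573 to 0.586 after Glu, 0.447 to 0.580 in wounding mock and 0.640 to 0.653 after wounding. These ratios are given as values, with no test.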
